A study of Mus musculus with 5 samples.

Results

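The glutathione, peroxiredoxin and thioredoxin genes of the mouse kidney papilla were taken from the array by a rule on gene symbols, which reads no measured value, though the gene families were picked with earlier results of these data known. They are the glutathione S-transferases of the alpha, kappa, mu, omega, pi, theta and zeta classes, the microsomal glutathione S-transferases (Mgst), the glutathione peroxidases (Gpx), the peroxiredoxins (Prdx), the thioredoxin reductases (Txnrd) and the genes named Txndc for a thioredoxin domain. The rule found 93 of 41174 non-control probes, which stand for 58 of 20257 genes with a symbol, in 12 families. Of the 93 probes, 91 were found by the name in the deposited files and 2 (Gpx8 and Gstp3) only by the current symbol of their accession. In all, 10 members have a current symbol that differs from the name in the files. Among them Tmx1, Tmx2, Tmx3, Tmx4 and Erp44 were listed as Txndc genes, and Nme8 was listed as Txndc3.

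Each of 5 two-colour Agilent whole mouse genome arrays compared GFP+ with GFP- cells of 1 biological replicate. Both groups came from the kidney papilla, the tip of the inner medulla, of H2B-GFP mice that had been given doxycycline before birth and were then left without it until about 2 to 3 months of age. The sample titles of all 5 arrays call the tissue control kidney papilla. Each division dilutes the fluorescent histone, so GFP+ cells are called label-retaining, while GFP- cells have lost the label or never had it. Collagenase-dispersed live cells were sorted by FACS straight into lysis buffer, and their cDNA was amplified by a global PCR method, SuperAmp, before labelling of GFP+ in Cy5 and GFP- in Cy3. The sources used here do not give the promoter that drives the transgene, the number of animals per replicate or the number of cells sorted. The p-values measure the spread between these 5 replicates, and in such bulk samples fewer cells of a type and less RNA per cell cannot be told apart.

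These enzymes share a thiol chemistry. Glutathione peroxidases and peroxiredoxins reduce hydrogen peroxide and lipid peroxides, drawing electrons from glutathione or from thioredoxin, and thioredoxin reductases recharge thioredoxin with electrons from NADPH. Glutathione S-transferases couple glutathione to electrophiles such as drugs and the aldehydes of peroxidised lipids, and many Txndc and Tmx proteins form or break disulfide bonds inside the endoplasmic reticulum. The inner medulla is salty, urea-rich and poor in oxygen, and several of these enzymes are under the control of the transcription factor NRF2.

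Values below are log2 ratios of GFP+ over GFP- after an offset of 50 on both intensities and loess normalization within each array. The direction is likely and not settled, since the sources used here do not say which dye each deposited intensity stands for. It rests on the Agilent habit of dividing Cy5 by Cy3 and on the labels, which put GFP+ in Cy5, and if it is the opposite all signs turn. The labels name no dye swap, so a constant dye effect is part of every ratio. A level is given as an intensity over that of the array's negative control probe in the same channel, and 3 times that probe counts as above background. Levels are those before loess, so a ratio can differ from that of its 2 levels.

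Of 58 genes, 56 passed the filter, which asked for a signal above background on 3 or more arrays in either channel, and 37 of these were above background in both channels on all 5 arrays. The brightest tested probe stands for a gene. Gpx7, an endoplasmic reticulum peroxidase, was at 0.664 to 4.19 times the control and was not tested. Gsta2, an alpha class transferase, was not tested either, and its probe gave a level in the GFP+ channel of 1603 on replicate 1 and 0.772 to 0.977 on the other arrays. In the GFP- channel the Gsta2 probe was at 9.36 on replicate 3 and 0.889 to 1.37 elsewhere.

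No gene of the set passed the test. With limma and Benjamini-Hochberg adjustment over 17640 genes, 0 of 56 members and 0 of all genes (0.0%) had an adjusted p under 0.05, and the lowest adjusted p among members was 0.827. At an unadjusted p under 0.05, limma gave 5 of 56 members (8.93%), against 882 of 17640 genes (5.0%). All 5 (Txndc12, Tmx4, Gsta1, Gstt1 and Gpx5) had a mean above 0, where 3.21% of all genes were found on that side and 1.79% on the other. A miss at this threshold does not show that the 2 populations are alike, since the spread over arrays was large.

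The members spread further between arrays than the median gene, and their means lay on both sides of 0. Their median SD over the 5 arrays was 1.91 on the log2 scale against 1.45 for all tested genes, and 27 of 56 (48.2%) had an SD of at least 2 against 32.2% of all genes. The probes of members were also brighter, with a median log2 intensity of 10.39 against 9.64 over all genes, and the part of brightness in the spread was not tested. A mean of at least 2-fold in either direction was found for 22 of 56 members (39.3%) against 25.8% of all genes, 11 with GFP+ higher (13.3% of all genes) and 11 with GFP+ lower (12.6%). The median of the members' means was -0.0039 and that of all genes -0.0035, and 28 of 56 members had a mean above 0 against 49.8% of all genes. The other genes of glutathione and thioredoxin metabolism, described last, also lay above all genes here, with an SD of at least 2 in 40.8% and a mean of at least 2-fold in 46.5%.

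Most members changed sign between arrays, as did most of all tested genes. Values lay on both sides of 0 for 48 of 56 members, and in 34 the highest and lowest array were at least 4 log2 units apart. The share of all genes with such a range was not counted. In 8 members (14.3%) every array had the same sign, against 7.56% of all genes. All 8 (Txndc12, Tmx4, Tmx1, Gsta1, Gstt1, Gstt3, Gstm2 and Prdx6b) were higher in GFP+, where 4.65% of all genes stood, and 0 members were lower on every array, where 2.91% of genes stood. Tmx1 was above background on 2 arrays in GFP- and 3 in GFP+. It therefore passed the filter only through GFP+, and its place in this count does not stand apart from that filter. In Tmx1, Gstt3 and Prdx6b neither channel was above background on at least a single array, where the sign is not reliable. Another tested probe of Tmx4 was below 0 on all 5 arrays (mean -1.95). The sign of Gstt1 on replicate 2 rests on a ratio near 0, with GFP- not above background.

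**Figure D1:**
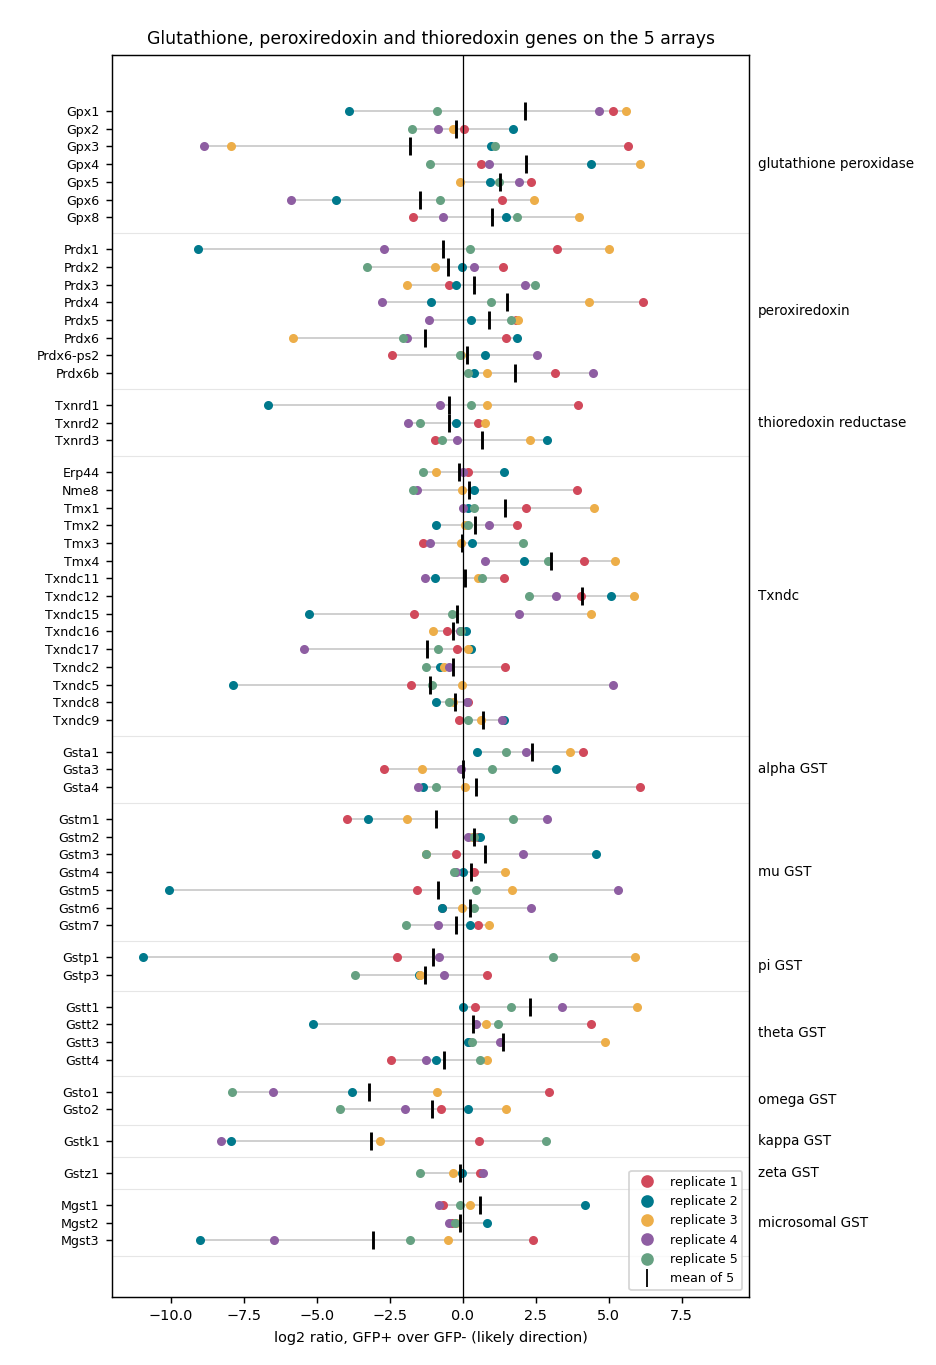
Log2 ratio of GFP+ over GFP- (likely direction, horizontal axis) for each of the 56 tested genes, grouped by family, with 1 coloured point per array and a black tick at the mean of 5. The points of 48 genes lie on both sides of 0, while Txndc12 lies between 2.26 and 5.88 on every array.

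Replicate 1 was the only array that correlated below 0 with every other array across all genes, though the other arrays were also little alike. Its log2 ratios correlated with those of each other array at -0.156 to -0.0601, a description over genes that are not independent. The highest correlation with any array was 0.140 for replicate 2, 0.0786 for replicate 3 and 0.201 for replicates 4 and 5. The sign of replicate 1 was kept, since nothing in the labels says that populations or dyes were exchanged on it. If they were, every value given for replicate 1 and every count of genes with one sign on all arrays would change. Between 57.6% and 75.2% of probes were above background in the first channel and between 59.3% and 72.4% in the second. Of the collecting duct principal cell markers 1 of 6 was above 0 on replicate 1, against 4 or 5 of 6 on each other array. Of the intercalated cell markers 0 of 5 were above 0 on replicate 1 (median -2.90), against 3 to 5 on each other array. Of the thin limb markers it was 1 of 5 (median -1.79), against 4 of 5 on each other array. Other lists had no such turn. On replicate 1 urothelium had 4 of 6 above 0 (2 to 4 on each other array) and proximal tubule 3 of 6 (2 or 3). Erythroid had 3 of 4 (1 to 3) and thick ascending limb 2 of 2 (0 to 2). Counts were highest on replicate 1 for endothelium (4 of 4, elsewhere 1 to 3) and leukocytes (4 of 6, elsewhere 1 to 3). The same held for fibroblasts (4 of 6, elsewhere 2) and pericytes (3 of 4, elsewhere 1 or 2). Among members, 13 of 56 (23.2%) had one sign on replicates 2 to 5, against 25.5% of all genes, and 5 (8.93%) had the opposite sign on replicate 1, against 17.9%. Without replicate 1, limma called 0 genes, and 7 of 56 members (12.5%) had an unadjusted p under 0.05 against 11.5% of all genes.

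The tissue label was checked against markers of papillary and other cells. All 6 collecting duct markers (Aqp2, Aqp3, Aqp4, Avpr2, Scnn1b and Scnn1g) and all 5 thin limb markers were tested. On single arrays the summed levels of the collecting duct markers ran from 567 to 34544 in GFP- and from 1931 to 19431 in GFP+, and those of the thin limb from 566 to 33148 and from 3655 to 36361. Markers of tubule segments outside the papilla were also present. Both thick ascending limb markers, Umod and Slc12a1, were above background on all arrays, with sums of 14739 to 61146 in GFP- and 9887 to 37793 in GFP+. For the proximal tubule 6 of 7 markers were tested, all above background on every array, with sums of 131 to 6792 in GFP- and 139 to 4448 in GFP+. Among leukocyte markers 6 of 6 were tested, with sums of 88.7 to 3524 in GFP- and 90.9 to 443 in GFP+. The part of these cells in the values of the redox genes was not tested.

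Some of these genes are known targets of NRF2, which binds the antioxidant response element, so their promoters were searched for its core, TGACNNNGC, on both strands, in windows from 250 bases before to 50 bases after each RefSeq start (GRCm38.p6). Of 58 members 52 matched the RefSeq table, with 72 windows. The core was found in 11 member windows (15.3%), against 4071 of 32851 windows (12.4%) of all genes. The 11 matches belong to 11 members and are shown because they are all those found. Each is printed 5′ to 3′ on the strand that holds the core, in capitals.
Gsta3, chr1:21240454-21240482, + strand: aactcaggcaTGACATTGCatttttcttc
Gstm5, chr3:107895802-107895830, + strand: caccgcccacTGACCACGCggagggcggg
Gstm7, chr3:107931725-107931753, - strand: tctgaagaccTGACAAAGCgaagccaatc
Mgst1, chr6:138140461-138140489, - strand: ccccgcctccTGACCGTGCcaagccccgc
Prdx1, chr4:116685456-116685484, - strand: ctacgggggaTGACTCAGCgctttccctg
Tmx1, chr12:70453155-70453183, + strand: ggtgagcggcTGACATGGCgcacttgggg
Tmx4, chr2:134644186-134644214, + strand: ccagccacccTGACCACGCccccaacgca
Txndc11, chr16:11134755-11134782, - strand: gtggaaggcTGACGCGGCcgcgagtgct
Txndc2, chr17:65639941-65639969, - strand: ctttgaacctTGACCTAGCctagctgtgt
Txndc5, chr13:38528034-38528062, - strand: gcctcgccgcTGACGTGGCgctagccgcc
Txnrd1, chr10:82859104-82859132, - strand: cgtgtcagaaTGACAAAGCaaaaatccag
The cores lie on the strand of the gene in 7 cases and on the other in 4. The match of Tmx1 begins after the start, at base 12, and the others begin 42 to 241 bases before it. The median of the means was -0.22 for the 11 members with the core and -0.10 for the 39 tested members without it, with 5 and 19 of them above 0. A match is a run of letters and not a measured binding site, and no match says only that these letters are not in this window.

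The members with the largest means, Txndc12 and Tmx4, encode thioredoxin-fold proteins of the endoplasmic reticulum, and their promoter windows are shown in full on the strand of the gene. The core is in capitals where it occurs. In Tmx4 it lies on the other strand, so the capitals are its reverse complement. The rank of Tmx4 holds for the probe chosen with the offset of 50, since its value was -2.08 with no offset.
Txndc12, chr4:108834428-108834727, + strand: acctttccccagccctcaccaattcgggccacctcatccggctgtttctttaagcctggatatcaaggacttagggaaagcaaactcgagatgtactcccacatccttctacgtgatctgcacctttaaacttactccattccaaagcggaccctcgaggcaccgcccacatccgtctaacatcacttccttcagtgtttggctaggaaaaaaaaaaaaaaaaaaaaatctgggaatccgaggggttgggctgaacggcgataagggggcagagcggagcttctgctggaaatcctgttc
Tmx4, chr2:134644072-134644371, - strand: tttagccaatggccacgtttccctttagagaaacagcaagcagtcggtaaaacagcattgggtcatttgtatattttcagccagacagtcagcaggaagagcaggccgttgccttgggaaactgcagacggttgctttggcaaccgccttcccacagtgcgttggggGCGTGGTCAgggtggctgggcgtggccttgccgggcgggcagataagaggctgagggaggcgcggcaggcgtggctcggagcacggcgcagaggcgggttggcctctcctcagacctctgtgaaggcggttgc
The window of Txndc12 holds 0 matches of the core and that of Tmx4 holds 1.

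The Txndc and Tmx genes held the largest means of the set. None passed the test, 2 of 15 tested had an unadjusted p under 0.05 (5.0% of all genes), 7 had a mean above 0 (49.8% of all genes), and their median was -0.02. Txndc12, a soluble thioredoxin-fold oxidoreductase of the endoplasmic reticulum, was at 96.8, 72.6, 35.4, 31.4 and 21.4 times the control in GFP- on replicates 1 to 5. In GFP+ it was at 1061, 3218, 1687, 474 and 160.1 times the control. Every GFP+ level lay above every GFP- level, and the array with the smallest gap was replicate 5. The log2 ratios of Txndc12 were 4.06, 5.07, 5.88, 3.20 and 2.26, with a mean of 4.09 ± 1.44 (SD, n = 5) and SE 0.63, which is 17.1-fold. The unadjusted p in limma was 0.000384 and the adjusted p 0.827, and without replicate 1 the adjusted p was 0.321. This gene has 1 probe on the array among those tested, so no other probe bears on it.

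Tmx4, a membrane-anchored member of the protein disulfide isomerase family, had probes that opposed each other. Its brightest probe gave log2 ratios of 4.17, 2.11, 5.21, 0.76 and 2.92 on replicates 1 to 5, with a mean of 3.03 ± 1.74 (SD, n = 5), SE 0.71, unadjusted p 0.00404 and adjusted p 0.827 in limma. Another probe of the same gene had -0.25, -2.43, -1.66, -3.00 and -2.42, a mean of -1.95 ± 1.06. The first probe was above 0 on all 5 arrays and this one below 0 on all 5. The third tested probe had a mean of 0.32 ± 0.88, and the fourth was not above background. With no offset on the intensities the opposing probe became the brightest, and the value that stands for Tmx4 was then -2.08.

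Tmx1, another membrane-anchored oxidoreductase of the endoplasmic reticulum, had log2 ratios of 2.19, 0.19, 4.51, 0.03 and 0.40. The ratios above 2 came from replicates 1 and 3, where the GFP+ level was 323 and 312 times the control. On the other 3 arrays the GFP+ level was between 0.909 and 4.96 times the control, so a sign there rests on a signal near background. The mean was 1.46 ± 1.91 (SD, n = 5) with an unadjusted p of 0.0979 in limma.

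The other 12 genes of this family stayed within a mean of 1.21 of 0. Txndc15 was the brightest and had -1.67, -5.25, 4.38, 1.93 and -0.38, so that replicates 2 and 3 differed by 9.64 log2 units. Txndc5, an endoplasmic reticulum disulfide isomerase also called ERp46, was at -7.87 on replicate 2 and 5.15 on replicate 4, with a mean of -1.11 ± 4.65. A dimmer probe of Txndc5 had a mean of 0.18 ± 0.71. Txndc17, a cytosolic thioredoxin-related protein, was at -5.44 on replicate 4 and between -0.85 and 0.27 on the other arrays. Erp44, which retains secretory proteins in the early secretory pathway, had -0.13 ± 1.08. The sperm thioredoxins Txndc2, Txndc8 and Nme8 had -0.34 ± 1.04, -0.27 ± 0.46 and 0.20 ± 2.27, and all 3 were above background in both channels on all 5 arrays, though they are known from male germ cells.

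**Figure D2:**
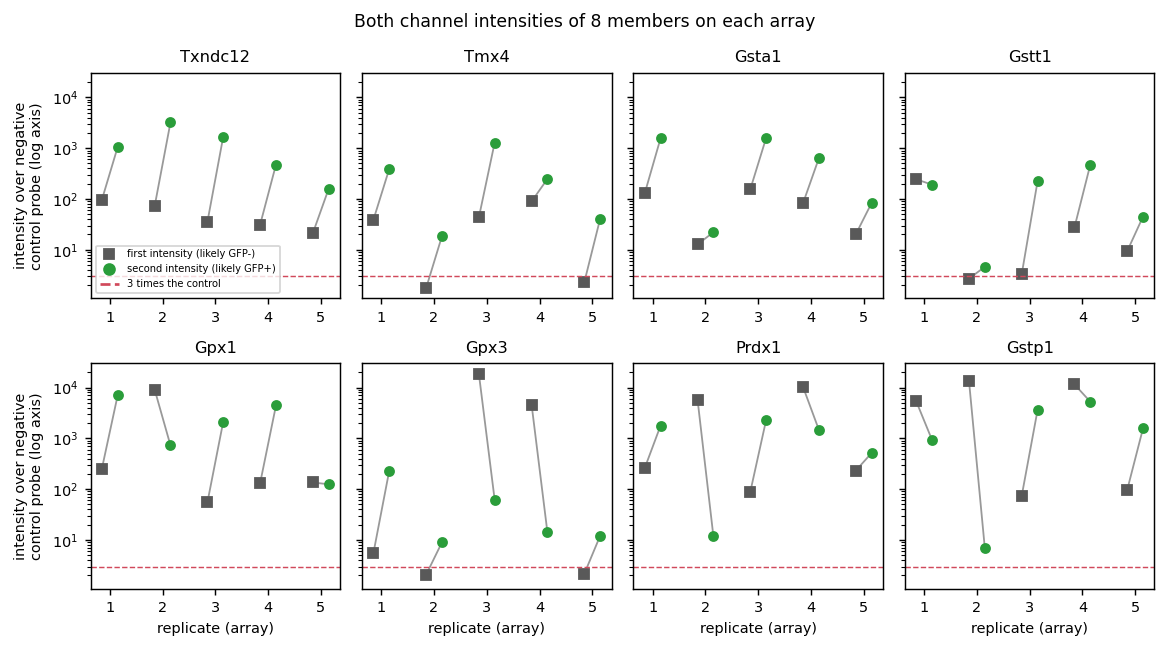
Intensity over the negative control probe (log axis) in the first channel (grey squares, likely GFP-) and the second (green circles, likely GFP+) for 8 genes on each of the 5 arrays, joined by a line within an array, with the dashed line at 3 times the control. The GFP+ point lies above the GFP- point on every array for Txndc12, Tmx4 and Gsta1, and on some arrays only for Gpx1, Gpx3, Prdx1 and Gstp1.

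The glutathione peroxidases differed widely between arrays. Of 7 tested, 1 had an unadjusted p under 0.05 (5.0% of all genes), 4 had a mean above 0 (49.8%), 5 had an SD of at least 2 (32.2%), and none kept one sign on all arrays (7.56%). Gpx1, the widespread cytosolic selenium enzyme, was at 254, 9105, 55.1, 133 and 135 times the control in GFP- on replicates 1 to 5 and at 7118, 726, 2129, 4445 and 125 in GFP+. Its log2 ratios were 5.14, -3.90, 5.59, 4.65 and -0.89. Replicates 1, 3 and 4 had GFP+ far above GFP-, replicate 2 the reverse, and replicate 5 little difference. The mean was 2.12 ± 4.27 (SD, n = 5), with an adjusted p of 0.827 in limma.

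Gpx3, the secreted plasma peroxidase that the proximal tubule makes in kidney, had the widest swing of this family. In GFP- it was at 5.43, 2.06, 18779, 4588 and 2.17 times the control, so the signal was high on replicates 3 and 4 and near background on the rest. In GFP+ it was at 226, 8.96, 61.5, 14.1 and 12.1. The log2 ratios were 5.65, 0.98, -7.94, -8.88 and 1.11, with a mean of -1.81 ± 6.32 (SD, n = 5). Beside these, the summed level of the 6 proximal tubule markers in GFP- was 686, 6711, 6792, 131 and 339 on replicates 1 to 5, high on replicates 2 and 3, and its part in the Gpx3 values was not tested.

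Gpx4, which reduces phospholipid hydroperoxides within membranes, had log2 ratios of 0.61, 4.38, 6.06, 0.91 and -1.12. It was above 0 on 4 of 5 arrays, and its mean was 2.17 ± 2.95 (SD, n = 5), with an unadjusted p of 0.0872 in limma. Gpx5, known as the androgen-dependent enzyme of the epididymis, had 2.32, 0.95, -0.08, 1.92 and 1.24, a mean of 1.27 ± 0.93, with an unadjusted p of 0.0401 (adjusted p 0.827). Its GFP+ level was 8.86 to 207 times the control, and only replicate 3 was not above 0. Gpx2, the epithelial enzyme of the gut, had 0.04, 1.71, -0.33, -0.85 and -1.75, a mean of -0.23 ± 1.28 with replicates 1 and 2 above 0. Gpx6, known from olfactory tissue, had -1.45 ± 3.58, and Gpx8, an endoplasmic reticulum peroxidase, had 1.00 ± 2.23.

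Among the peroxiredoxins, 0 of 8 tested had an unadjusted p under 0.05, against 5.0% of all genes, and 5 had a mean above 0, against 49.8%. Prdx1, the abundant cytosolic enzyme, was at 262, 5782, 88.4, 10269.6 and 232 times the control in GFP- and at 1787, 12, 2288, 1475 and 515 in GFP+. GFP+ was higher on replicates 1, 3 and 5 and lower on replicates 2 and 4. The log2 ratios were 3.23, -9.08, 5.01, -2.70 and 0.24, and the mean was -0.66 ± 5.55 (SD, n = 5). Without replicate 2 alone the mean was 1.44, so its sign rests on that array.

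Prdx2, the cytosolic peroxiredoxin best known from red cells, was the brightest member of its family. Its 3 tested probes had means of -0.50 ± 1.77, -0.68 ± 2.48 and -0.48 ± 3.97, all below 0. On single arrays they differed, and replicate 3 gave -0.95 with the brightest probe, 3.09 with the next and 5.45 with the dimmest. The means of the probes lay close together while their values on single arrays did not.

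Prdx3, the mitochondrial form, had -0.47, -0.24, -1.90, 2.13 and 2.49. Replicates 4 and 5 were above 0 and the others below, for a mean of 0.40 ± 1.86. Prdx4, the form of the endoplasmic reticulum, had 6.17, -1.08, 4.34, -2.75 and 0.95, a mean of 1.53 ± 3.70. Prdx5, found in mitochondria and peroxisomes, had 1.82, 0.27, 1.88, -1.15 and 1.65, so that 4 of 5 arrays were above 0, with a mean of 0.89 ± 1.32 and an unadjusted p of 0.179 in limma.

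Prdx6, which takes electrons from glutathione, and its copies could not be read with confidence, because Prdx6b and Prdx6-ps2 resemble Prdx6 and their probes may share targets. The brightest Prdx6 probe had 1.48, 1.86, -5.83, -1.89 and -2.04, a mean of -1.28 ± 3.13. The other 2 tested Prdx6 probes had means of 0.90 ± 1.34 and 1.13 ± 2.28, and with the mean of all tested probes in place of the brightest the value was 0.25. Prdx6b had 3.16, 0.39, 0.84, 4.46 and 0.19, all above 0, with a mean of 1.81 ± 1.90 and an unadjusted p of 0.0502 in limma. On replicates 2, 3 and 5 the GFP+ level of Prdx6b was only 2.88 to 3.80 times the control. The second Prdx6b probe had a mean of 0.33 ± 2.36 and was below 0 on 3 arrays. Prdx6-ps2, a pseudogene, had 0.15 ± 1.78.

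The thioredoxin reductases had 0 of 3 genes at an unadjusted p under 0.05, against 5.0% of all genes. Txnrd1, the cytosolic enzyme, had 3.94, -6.68, 0.83, -0.77 and 0.28. Replicates 1 and 2 lay far on opposite sides and the other arrays within 1 of 0, where both levels were between 3.22 and 8.40 times the control. The mean was -0.48 ± 3.88 (SD, n = 5), and without replicate 2 it was 1.07. Txnrd2, the mitochondrial enzyme, had 0.51, -0.22, 0.77, -1.86 and -1.46, a mean of -0.45 ± 1.17, and its other probes had means of -0.12 ± 0.86 and 0.75 ± 1.30. Txnrd3, a testis-rich enzyme that can also reduce oxidised glutathione, had -0.94, 2.88, 2.31, -0.19 and -0.71, a mean of 0.67 ± 1.79.

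Of the alpha class transferases Gsta1 had one sign on all arrays. Its GFP- levels were 129.9, 12.7, 155, 82.7 and 20.2 times the control and its GFP+ levels 1576, 22.2, 1586, 633 and 83.6. On each array GFP+ was the brighter, most on replicates 1 and 3 and least on replicate 2. The log2 ratios were 4.13, 0.48, 3.67, 2.16 and 1.496, and the mean was 2.39 ± 1.51 (SD, n = 5), 5.23-fold, with SE 0.65, a limma p of 0.00831 before adjustment and 0.827 after. Gsta1 and Gsta2 are near-identical and the Gsta1 probe may also detect Gsta2, whose own probe was bright in GFP+ on replicate 1 alone.

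Gsta4, which conjugates aldehydes of lipid peroxidation, was at 6.08 on replicate 1 and at -1.37, 0.09, -1.54 and -0.92 on the others. Its mean of 0.47 ± 3.20 became -0.94 without replicate 1. Gsta3 had a mean of 0.01 ± 2.27 with its brightest probe and -1.32 ± 1.53 with the other.

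The mu class had 0 of 7 genes with a mean of at least 2-fold in either direction, against 25.8% of all genes, and 0 at an unadjusted p under 0.05, against 5.0%. These genes lie in 1 cluster and are alike in sequence, so their probes may share targets. Gstm2 had 0.51, 0.58, 0.31, 0.19 and 0.40, the smallest SD of all tested members. All 5 values were above 0 and close together, with a mean of 0.40 ± 0.16 (SD, n = 5), and the p was 0.342 with limma's SE of 0.39, which pools the spread over genes. Gstm1, a main liver form, had -3.97, -3.25, -1.89, 2.87 and 1.74 with its brightest probe, below 0 on replicates 1 to 3 and above 0 on 4 and 5. The other Gstm1 probe had 0.27 ± 1.48 against -0.90 ± 3.05. Gstm3, the brightest of the class, had -0.21, 4.55, -1.27, 2.08 and -1.25, a mean of 0.78 ± 2.51 with only replicates 2 and 4 above 0. Gstm5 ran from -10.07 on replicate 2 to 5.33 on replicate 4. Gstm4, Gstm6 and Gstm7 had 0.27 ± 0.72, 0.26 ± 1.25 and -0.22 ± 1.16.

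Gstp1, the pi class enzyme that many epithelia express, had the widest range of all tested members. Its GFP- levels were 5363, 13618, 74.1, 11531 and 97.1 times the control and its GFP+ levels 931, 6.98, 3587, 5261 and 1583. GFP- was brighter on replicates 1, 2 and 4 and GFP+ on replicates 3 and 5. The log2 ratios were -2.25, -10.96, 5.90, -0.81 and 3.10, with a mean of -1.004 ± 6.43 (SD, n = 5) that became 1.48 without replicate 2. A second probe of Gstp1 had 1.16, -4.95, 4.47, -1.09 and 0.55, with the low value again on replicate 2 and the high one on replicate 3. Gstp3 had 0.82, -1.50, -1.47, -0.63 and -3.69, below 0 on 4 of 5 arrays, with a mean of -1.29 ± 1.64 and an unadjusted p of 0.101 in limma.

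In the theta class Gstt1 and Gstt3 had one sign on all arrays, 2 of 4 genes against 7.56% of all genes. Gstt1, which acts on small halogenated compounds, had 0.42, 0.01, 5.97, 3.39 and 1.67, a mean of 2.29 ± 2.44 (SD, n = 5) with a limma p of 0.0433 before adjustment and 0.827 after. The large values came from replicates 3 and 4, where GFP+ was at 222 and 473 times the control and GFP- at 3.32 and 27.7. On replicate 2 both channels were near background, at 2.70 and 4.62. Gstt3 had 0.21, 0.20, 4.87, 1.29 and 0.31, so that its mean of 1.38 ± 2.01 rests mainly on replicate 3. On replicate 2 neither channel of Gstt3 was above background, at 1.504 and 2.99 times the control, so its sign there rests on background. Gstt2 had 0.35 ± 3.43 and ran from -5.13 to 4.38, and Gstt4 had -0.64 ± 1.37.

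The lowest means of the set were those of Gsto1, Gstk1 and Mgst3. Gsto1, an omega class enzyme that reduces dehydroascorbate, was at 72.7, 4149, 104, 5732 and 30304 times the control in GFP- and at 316, 371, 41.8, 83.1 and 169 in GFP+. Replicate 1 had GFP+ the brighter and the other arrays GFP-. The log2 ratios were 2.96, -3.78, -0.89, -6.50 and -7.89, with a mean of -3.22 ± 4.37 (SD, n = 5), a limma p of 0.0784 before adjustment and 0.827 after. Gsto2 had -1.05 ± 2.16.

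Gstk1, the kappa class enzyme of mitochondria and peroxisomes, had 0.56, -7.92, -2.84, -8.27 and 2.85. Replicates 2 and 4 stood at GFP- levels of 18868 and 12997 times the control, and replicate 5 at 2.91. Its mean was -3.12 ± 4.97 (SD, n = 5), with an unadjusted p of 0.119 in limma. Gstz1, the zeta class enzyme of tyrosine breakdown, had 0.60, -0.03, -0.32, 0.69 and -1.46, a mean of -0.11 ± 0.87.

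Among the microsomal transferases, Mgst3 had 2.41, -9.004, -0.52, -6.47 and -1.79, a mean of -3.07 ± 4.61 (SD, n = 5) with an unadjusted p of 0.103 in limma. It was above 0 on replicate 1 and below on the others, as was Gsto1. The second probe of Mgst3 had a mean of -0.61 ± 3.81 and was above 0 on replicates 1 and 5. Mgst1, a membrane enzyme of the endoplasmic reticulum and mitochondria, had -0.66, 4.19, 0.26, -0.82 and -0.08, high on replicate 2 alone, with a mean of 0.58 ± 2.06. Its second probe, too dim to be tested, had 4.05 on replicate 2 as well. Mgst2, which can make leukotriene C, had -0.10 ± 0.54.

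**Figure D3:**
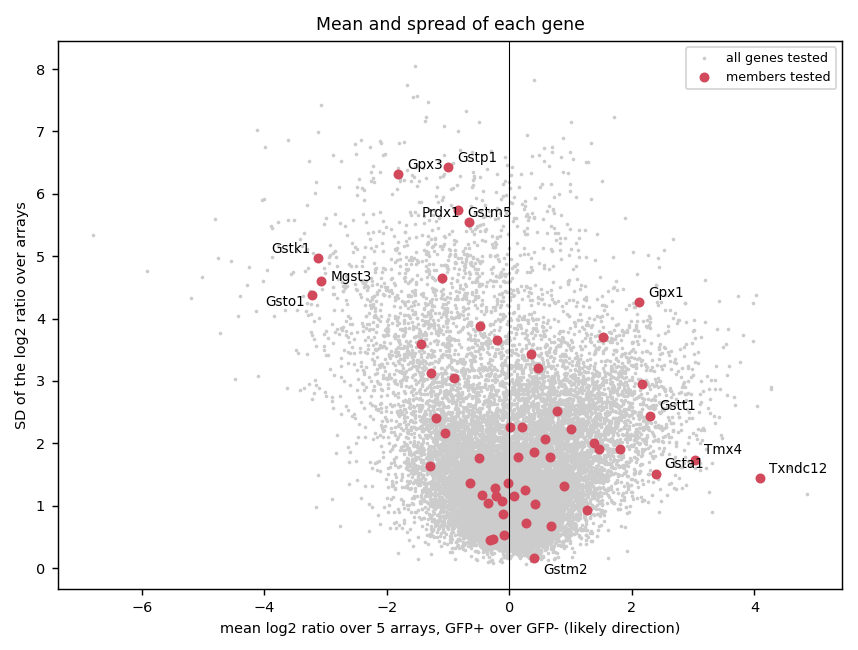
Mean log2 ratio of GFP+ over GFP- over 5 arrays (horizontal axis) against the SD over arrays (vertical axis) for all 17640 tested genes in grey and the 56 members in red. Members range from Gstm2 with an SD of 0.16 to Gstp1 with 6.43, and Txndc12 lies furthest to the right among them.

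Of the 56 tested members, 17 had more than 1 tested probe, and in 5 of these (Mgst3, Prdx2, Prdx4, Prdx6b and Txndc11) the means of all their probes lay on one side of 0. In the other 12 they lay on both sides. How often the probes of 1 gene lie on both sides over the whole array was not counted, so this is not a trait of the set. Tmx4 had the probes furthest apart, at -1.95 and 3.03, and those of Prdx2 were among the closest, at -0.68 to -0.48. Sequences of the probes were not used here, so which transcript form each probe reads is not given.

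**Figure D4:**
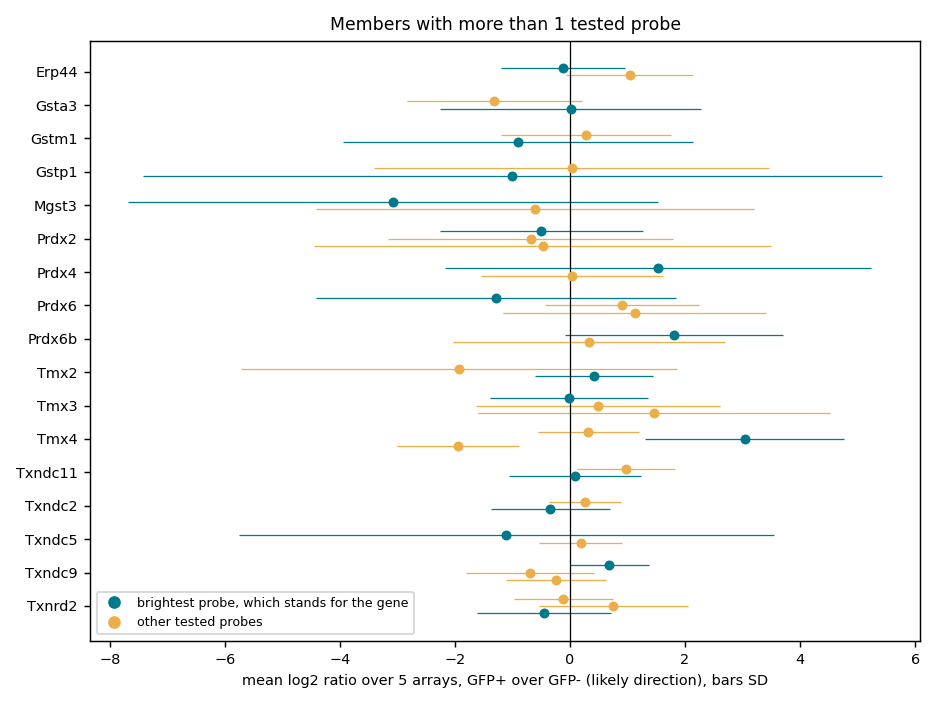
Mean log2 ratio over 5 arrays (points, with bars of 1 SD) of each tested probe of the 17 members that have more than 1, with the brightest probe in teal and others in orange. The Tmx4 probes at 3.03 and -1.95 have bars that do not meet, while in most genes the bars of different probes overlap.

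Both channels were measured above background for 86.0%, 68.8%, 71.0%, 72.0% and 65.6% of the 93 member probes on replicates 1 to 5, against 63.8%, 54.2%, 53.4%, 53.6% and 56.5% of all probes. Only 1 channel was above background for 8, 12, 8, 8 and 19 member probes. On replicate 5 that is 20.4% of member probes against 19.2% of all probes, so the members were close to the whole array there. The channel was GFP+ for 16 of 19 member probes and for 6551 of 7924 of all probes. On each of replicates 1 to 4 the member share was lower than that of all probes, with the smallest gap on replicate 3. It was 8.6%, 12.9% and 8.6% on replicates 1, 2 and 4, against 16.4%, 17.3% and 17.9% of all probes.

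The other genes of glutathione and thioredoxin metabolism were read from 3 lists with 75 genes that are not members. Of 71 tested, limma called 0, 5 (7.04%) had an unadjusted p under 0.05 against 5.0% of all genes, and all 5 were higher in GFP+. Their median was 0.11, against -0.0035 over all genes, and 41 of 71 were above 0. One sign on all arrays was seen in 6 of 71 (8.45%), close to the 7.56% of all genes, with 5 higher (Pgd, Abcc4, Txnip, Nfe2l2 and Tkt) and 1 lower (Hmox1).

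Txnip, which binds and inhibits thioredoxin, had the lowest p of the 24 tested thioredoxin partners and disulfide oxidoreductases. Its log2 ratios were 4.66, 2.63, 3.74, 1.49 and 1.30. All were above 1, with a mean of 2.77 ± 1.44 (SD, n = 5), SE 0.63, a limma p of 0.00345 before adjustment and 0.827 after. Thioredoxin itself, Txn1, had 0.02 ± 1.46, and the mitochondrial Txn2 had 1.11 ± 1.82. Msra, which repairs oxidised methionine, had -4.91 and -8.45 on replicates 1 and 2 and between -0.37 and 0.14 on the others, a mean of -2.73 ± 3.82.

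Of 24 genes for synthesis, use and recycling of glutathione 23 were tested. Pgd, an NADPH-making enzyme of the pentose phosphate pathway, had 3.13, 5.84, 6.70, 2.55 and 0.24, a mean of 3.69 ± 2.61 (SD, n = 5), with a limma p of 0.00736 before adjustment and 0.827 after. Abcc4, an efflux pump, had 0.87, 3.86, 5.12, 3.37 and 0.39, a mean of 2.72 ± 2.02, with an unadjusted p of 0.0117. In both genes replicates 2 and 3 were highest and replicate 5 lowest. Gclc, the catalytic subunit of the first step of glutathione synthesis, had -0.17 ± 1.28. Gss, which completes glutathione, had 1.90 ± 2.48, and Gsr, which recycles its oxidised form, had -2.08 ± 4.75. Gclm was below the filter and was not tested.

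Of 26 genes of the NRF2 pathway and other antioxidant enzymes 24 were tested. Nfe2l2, which encodes NRF2, had 2.70, 3.00, 1.45, 1.67 and 0.28. All 5 were above 0, with a mean of 1.82 ± 1.08 (SD, n = 5), SE 0.54, a limma p of 0.0122 before adjustment and 0.827 after. Tkt, a pentose phosphate enzyme, had 1.56 ± 1.498 with an unadjusted p of 0.0472, and Keap1, which marks NRF2 for breakdown, had 1.38 ± 2.62. The NRF2 targets Hmox1, which breaks down heme, and Nqo1, a quinone reductase, had -0.57 ± 0.64 and -1.42 ± 4.92, and the Nqo1 value rests on -10.07 on replicate 4. Cat, which encodes catalase, had -1.12 ± 3.20, and the superoxide dismutases Sod1 and Sod2 had 1.24 ± 4.52 and -0.76 ± 3.35. None of these passed the test.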

How the data were processed

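Each array's table gives, for every probe, a pair of channel intensities (linear), a log10 ratio and a p-value, as named per the file headers. Agilent Feature Extraction is the only tool in the submitters' processing notes. The p-value the authors deposited was not used. Dividing the second intensity by the first gave the deposited log10 ratio to within 0.001 at 78.3% to 89.1% of probes per array. The log10 ratios of the deposited series matrix differed from these at 0 to 3 probes per array, and their medians were -0.0224, 0.0009, 0, 0.0108 and 0.0517. That match fixes its log base. Its direction is likely, as for the intensities, and its centring stays unknown.

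An offset of 50 was added to the intensities, which were turned into log2 ratios and normalized within each array by loess (span 0.3, control probes at weight 0). Values the authors' software had marked were left out (14 to 41 per array). No background was subtracted, since scanner background signals were not used here. A probe was tested where it reached 3 times the negative control probe in at least 1 channel on at least 3 arrays. Of 41174 probes 34384 had 1 symbol (22944 named by RefSeq accession, 10533 by the platform's annotation, 907 by the file), 45 had several and 6745 were unnamed here. Log2 ratios went into limma 3.58.1 under R 4.3.3 (lmFit and eBayes against 0, two-sided, Benjamini-Hochberg over 17640 genes, threshold 0.05). The step was checked on simulated data. A pass was required only at an SD of 0.3, below the median SD of 1.45 of all tested genes. SE is limma's. The number of arrays limits the precision. All sample columns were used.

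Members and lists were chosen with earlier results of these data known. Values on every array are given for members with one sign on all arrays, the member of lowest p and the brightest of each family, and a fixed set. Other genes named are the 2 of lowest p in each list and a fixed set. Alternatives were the offset, the normalization, the filter, the choice of probe, the variance model, array weights and leaving out each array. Promoters and other names come from RefSeq.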

Additional observations from a re-analysis of the deposited data

Results flagged for a closer look

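In 6 of 77 values examined 1 array lay apart from the other 4 by Dixon's ratio, where chance sets apart about 1 in 20. The 77 are 73 genes, the members' median and counts of member probes by channels above background, and all 6 were genes. Gsta4 stood at 6.08 on replicate 1, Gstt3 at 4.87 on replicate 3, Mgst1 at 4.19 and Mgst2 at 0.85 on replicate 2, Txndc17 at -5.44 on replicate 4 and Nqo1 at -10.07 on replicate 4.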

How the results depend on the processing

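Under 16 alternatives limma called 0 members, 0 genes of the pathway lists and 0 genes overall. With array weights 8 members had an unadjusted p under 0.05 (14.3%), against 8.8% of all genes. In every other alternative the count was 4 to 7, and when 1 array was left out it was 4 to 7 and the members' median -0.16 to 0.24. Of 1163 values of 73 genes, the 56 tested members and 17 pathway genes, 70 changed sign, and the cause was not tested. With array weights these were Gclc (0.079), Gsta4 (-0.32), Gstt2 (-0.063), Nme8 (-0.38), Tmx3 (0.14), Txn1 (-0.066), Txndc11 (-0.12) and Txndc15 (0.091). With the deposited log ratios they were Erp44 (0.13), Gclc (0.0047), Gsta3 (-0.036), Gstz1 (0.22) and Tmx3 (0.16). With the mean of all probes they were Erp44 (0.46), Gsr (0.13), Gsta3 (-0.65), Prdx6 (0.25), Tmx2 (-0.75), Tmx3 (0.64), Txndc9 (-0.085) and Txnrd2 (0.060). With median centring they were Erp44 (0.044), Gstz1 (0.041) and Tmx3 (0.16). With no offset they were Gsta3 (-0.22), Tmx4 (-2.08) and Txn1 (-0.093). With an offset of 200 it was Tmx3 (0.12). With scaling between arrays they were Tmx3 (0.0050) and Txndc15 (0.11). With 1 array left out the ranges that crossed 0 were -2.07 to 0.041 for Cat, -0.52 to 0.18 for Erp44, -0.47 to 0.18 for Gclc, -0.72 to 0.14 for Gpx2, -0.79 to 0.69 for Gsta3, -0.94 to 0.97 for Gsta4, -0.16 to 1.29 for Gstm3, -0.031 to 0.41 for Gstm4, -2.38 to 1.47 for Gstm5, -0.26 to 0.50 for Gstm6, -0.50 to 0.21 for Gstm7, -2.73 to 1.48 for Gstp1, -0.66 to 1.71 for Gstt2, -0.31 to 0.23 for Gstz1, -0.33 to 0.93 for Mgst1, -0.33 to 0.0016 for Mgst2, -0.72 to 0.68 for Nme8, -2.35 to 0.74 for Nqo1, -2.08 to 1.44 for Prdx1, -0.97 to 0.20 for Prdx2, -0.12 to 0.98 for Prdx3, -0.45 to 0.79 for Prdx6-ps2, -0.12 to 2.92 for Sod1, -1.82 to 0.48 for Sod2, -0.54 to 0.31 for Tmx3, -0.47 to 0.54 for Txn1, -0.26 to 0.42 for Txndc11, -1.34 to 1.07 for Txndc15, -2.67 to 0.59 for Txndc5 and -1.58 to 1.07 for Txnrd1. Txndc12 stayed between 3.65 and 4.55 in all 16, with an adjusted p of 0.321 to 0.975, and Gsta1 between 1.95 and 2.86. Of the 56 tested members 27 kept their sign in all of these. Slide or scan date as a block was not run, since the files used here give neither. The test of each array's ratio against 0 is already paired, since 1 ratio holds both populations of a replicate, so no further paired analysis was run. In 9 tested members (Tmx1, Txndc5, Txndc16, Txndc17, Erp44, Gsta3, Gstt3, Gstt4 and Prdx6b) neither channel was above background on at least 1 array, where the ratio is not reliable, and others, such as Tmx4, Gstt1 and Gpx3, had 1 channel below it on single arrays.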
